A study of Mus musculus with 2 samples.

Results

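The D cyclins, their partner kinases Cdk4 and Cdk6 and the inhibitors of these kinases were examined on 2 arrays of transduced mouse marrow cells. The members were the 10 genes Ccnd1, Ccnd2, Ccnd3, Cdk4, Cdk6, Cdkn1a, Cdkn1b, Cdkn1c, Cdkn2c and Cdkn2d, out of 18193 genes in all. They were read by 26 probe sets, taken as every probe set that the platform annotation gives to exactly 1 of these symbols, and 0 further probe sets paired a member with another gene. The cells were wild-type C57BL6J marrow cells labelled LSK Flt3-, a fraction without lineage antigens or surface Flt3 and with Sca-1 and high c-Kit, which is rich in blood stem and progenitor cells. One array held RNA of cells transduced with GFP, the control, and 1 array held RNA of cells transduced with Satb1, a chromatin organiser with a preference for AT-rich DNA, so both groups had been through gene transfer. The sources used here do not give the vector, the time between transduction and lysis or the number of animals behind each array. With 1 array per group there was no replicate check, and no difference below carries a p-value or a replicate error.

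D cyclins bind Cdk4 or Cdk6 when growth signals reach a cell, and the active kinases phosphorylate the retinoblastoma protein and its relatives, which releases E2F transcription factors and lets the cell leave G1. Ink4 proteins bind Cdk4 and Cdk6 themselves and keep cyclin D off, whereas Cip/Kip proteins bind cyclin and kinase together and act mainly on cyclin E and Cdk2. In blood stem cells Cdk6 is known to govern the exit from quiescence, Cdkn1c is known for keeping stem cells quiescent, and mouse embryos that lack all D cyclins fail to sustain blood formation.

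The values are MAS5 intensities, the linear signal that the Affymetrix algorithm forms from the probes of a probe set. Each pair of intensities below gives the array labelled GFP first and the array labelled Satb1 second. Probe sets bind with different strength, so levels were compared only for the same probe set on both arrays. Differences are log2(Satb1) minus log2(GFP), after intensities under 61.7, the median of all values, had been raised to that floor. A gene or probe set was counted as higher or lower at 2-fold or more, and a gene was represented by its brightest probe set. The only technical error available was how far the log2 differences of a gene's probe sets lay apart, pooled over all such genes. This within-gene SD was 0.34 at mean intensities under 200, 0.28 from 200 to 500, 0.22 from 500 to 2000 and 0.19 over 2000. Error common to a gene's probe sets, for instance from the cell preparation, is not in it.

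Several facts of the arrays bear on these values. Satb1 signal was lower, not higher, on the array that carries its name (1116 and 909 by its brightest probe set, a difference of -0.30). The second brightest gave -0.09, and the others were also lower or under the floor. Whether these probe sets read the transduced sequence is not known, so they do not show the level of transduced Satb1 RNA. All directions therefore rest on the labels. Kit read 3293 and 3388 by its brightest probe set and 232 and 174 by its other. Cd34 (8563 and 8197) was bright, Flt3 was present (1390 and 1334) and Procr was dim (133 and 125). Ly6a, the Sca-1 gene, was not analysed here, and 4 of 6 measured lineage antigen genes were below the floor on both arrays. Some markers of other cell types were also bright on both arrays, among them Mpo (18391 and 16452), Prtn3 (12209 and 12148) and Pf4 (19179 and 21045). Among 7 genes listed for LSK cells, which include Flt3 although the label is Flt3-, 2 were higher and 5 lower. Of the lower ones, Cd34 (-0.06), Procr (-0.09) and Flt3 (-0.06) were nearly level. Slamf1, a surface marker of stem cells, was 2.43-fold higher by the probe set over the floor (95.7 and 232.6), and Hlf, a stem cell transcription factor, was lower by both of its probe sets (673 and 382, a difference of -0.82, and 562 and 270, a difference of -1.06). Marker genes of other cell types also included several that were 2-fold apart. Of 10 granulocyte and monocyte markers, 5 were 2-fold higher on the array labelled Satb1, against 0.272% of all genes above the floor. These were Camp (187 and 834), Ltf (93.2 and 306), S100a8 (3094 and 10109), Lcn2 (381 and 1123) and S100a9 (1578 and 4539). The other 5 were within 2-fold. Over the whole list 6 were higher to some degree and 4 lower, Ctsg (12716 and 8777) the most, with a median of 1.12. Its summed intensity was 53546 and 59156. Of 5 mast cell and basophil markers, 3 were 2-fold lower, against 0.86% of all genes above the floor, and 1 was 2-fold higher. The lower 3 were Mcpt8 (4653 and 1449), Fcer1a (397 and 65.4) and Ms4a2 (1227 and 560), and the higher 1 was Prg2 (194 and 825). Cpa3 was lower by under 2-fold (7418 and 5347). The sum of the 5 was 13890 and 8245. All 6 megakaryocyte markers were higher by under 2-fold, beside 45.2% of all genes above the floor that were higher. Ppbp (1752.5 and 3074.7) and Selp (909 and 1528) differed most and Gp9 (923.5 and 953.3) least. The sums were 26646 and 30841, most of it from Pf4. The erythroid markers Alas2 and Hba-a1 were below the floor on both arrays, and the other 3 were higher by under 2-fold (sum of the 5 measured, 4768 and 5735). The part of such cells in the member differences was not tested.

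All 10 members were above the floor on the array labelled GFP, and 9 were above it on both. None of the 10 differed by 2-fold (0 higher and 0 lower), against 1.13% of the 11048 genes above the floor. By their brightest probe sets the differences of the members ran from -0.27 for Cdk6 to 0.36 for Cdkn2d, with 5 members higher on the array labelled Satb1 by some amount and 5 lower. The median of the members was 0.04, and that of all genes above the floor was -0.02. Of all genes above the floor, 45.2% were higher. Of the 25 member probe sets above the floor, 14 were higher and 11 lower, and 0 differed by 2-fold, against 1.18% of all 20173 probe sets above it. A single member probe set differed by 1.5-fold, that of Cdkn1a (1421679_a_at), which was higher, against 2.47% of all probe sets, and 0 were 1.5-fold lower, against 4.72%. At 1.2-fold, a threshold chosen after the values were seen, Ccnd1 and Cdkn2d were higher (2 of 10 members, against 9.55% of all genes) and Cdk6 and Cdkn1a lower (2 of 10, against 17.0%). With 10 members, a count of 2 is too small to set apart from these shares.

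**Figure D1:**
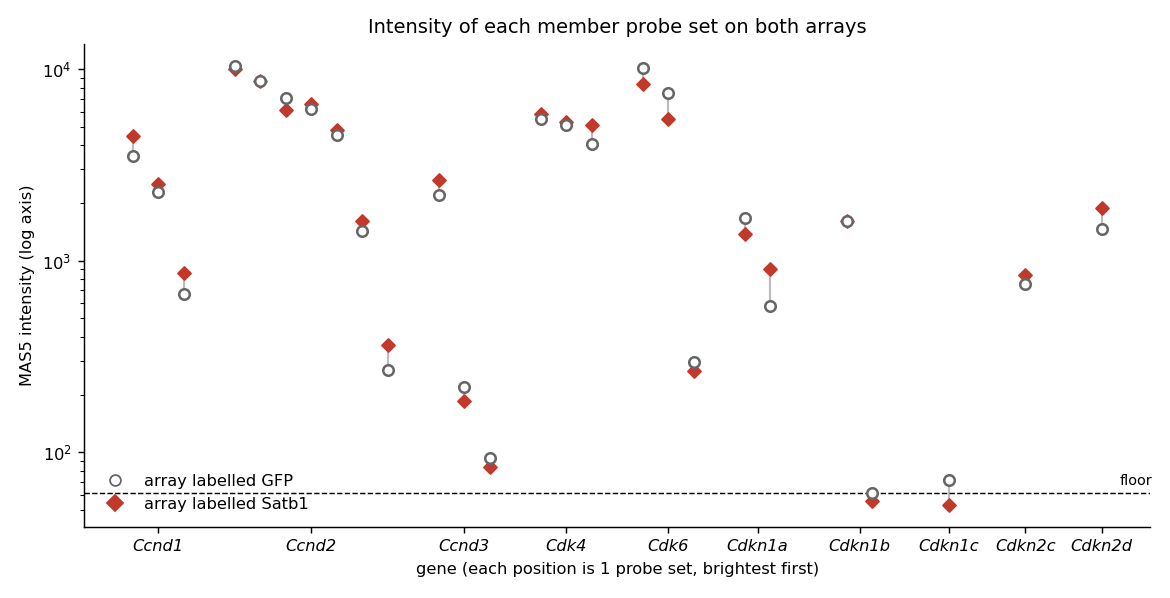
MAS5 intensity (log axis) of the 26 member probe sets, with open circles for the array labelled GFP, red diamonds for the array labelled Satb1 and a dashed line at the floor of 61.7. The pair of points of each probe set lies close together, furthest apart at the second Cdkn1a probe set (577 and 902).

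The D cyclins were all well above the floor, and Ccnd1 was higher on the array labelled Satb1 by every probe set. Ccnd1, the D cyclin best known as a target of mitogen signalling, read 3508 and 4454 by its brightest probe set (1417420_at), a difference of 0.34. The second (1448698_at) read 2282 and 2521, a difference of 0.14. The dimmest (1417419_at) read 674 and 867, a difference of 0.36. The mean over the 3 probe sets was 0.28 ± 0.12 (SD, n = 3 probe sets). The brightest one differed by 1.82 times the within-gene SD of its intensity range. Of the 2570 genes with a mean intensity over 2000, 5.14% differed at least as much in either direction. Of 1212 genes with 3 probe sets that exceeded the floor on both arrays, 19.8% had all 3 higher on the array labelled Satb1 and 20.4% all 3 lower.

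Ccnd2, the D cyclin that responds to cytokines in many blood cells, was read by 7 probe sets that gave no common direction. The brightest of them (1416122_at) gave 10392 and 10006, a difference of -0.05. The next (1434745_at) read 8678 and 8645, a difference of -0.01 that was 0.05 once both arrays were centred on their medians. Of the 7 probe sets, 4 were higher and 3 lower on the array labelled Satb1. The lowest difference, -0.20, came from 1455956_x_at (7051 and 6136), a probe set whose suffix marks possible cross-matches to other transcripts. The highest, 0.43, came from the dimmest, 1416124_at, which read 270 and 365. The remaining 3 read 6174 and 6555 (1430127_a_at), 4551 and 4839 (1448229_s_at) and 1428 and 1611 (1416123_at), with differences between 0.09 and 0.17. The mean over all 7 was 0.07 ± 0.20 (SD, n = 7 probe sets), so the sign of Ccnd2 was set by the choice of probe set.

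Ccnd3, a D cyclin with known roles in lymphoid precursors and red cell precursors, was higher by its brightest probe set and lower by the others. The brightest (1415907_at) read 2215 and 2628, a difference of 0.25. The second (1438805_at) read 220 and 184, a difference of -0.25. The third (1444323_at) read 93.3 and 83.4, a difference of -0.16 that was 0.00 after quantile normalization. The bright and the dim probe sets thus went opposite ways, and the mean over the 3 was -0.06 ± 0.27 (SD, n = 3 probe sets).

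**Figure D2:**
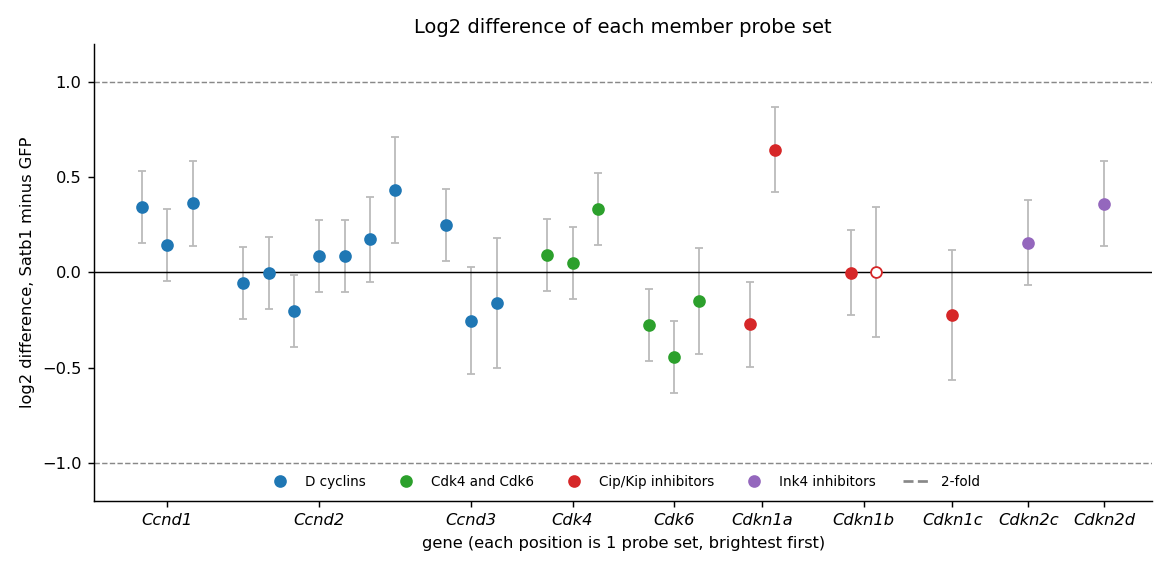
Log2 difference (Satb1 minus GFP) of each member probe set, coloured by gene group, with bars of 1 within-gene SD for its intensity range and dashed lines at 2-fold. The open point is the Cdkn1b probe set with both intensities under the floor; the 3 Ccnd1 and 3 Cdk4 points lie above 0, the 3 Cdk6 points below 0, and the 2 Cdkn1a points on opposite sides.

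The kinases differed in direction, Cdk4 being slightly higher and Cdk6 lower on the array labelled Satb1 by every probe set. Cdk4 read 5512 and 5866 by its brightest probe set (1422441_x_at), a difference of 0.09. Its second (1422439_a_at) read 5091 and 5266, a difference of 0.05. The third (1422440_at), whose name carries no suffix for shared probes, read 4073 and 5136, a difference of 0.33. The probe sets of Cdk4 agreed in sign, and their mean was 0.16 ± 0.15 (SD, n = 3 probe sets). The third was the one that differed by more than the within-gene SD, by 1.77 times.

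Cdk6 was lower by all 3 of its probe sets. The brightest (1435338_at) read 10085 and 8336, a difference of -0.27. The second (1455287_at) read 7506 and 5514, a difference of -0.45, or 1.36-fold lower. The dimmest (1460291_at) read 297 and 267, a difference of -0.15. The mean was -0.29 ± 0.15 (SD, n = 3 probe sets). At 1455287_at the difference was 2.35 times the within-gene SD, and 2.72% of the 3531 probe sets with a mean intensity over 2000 differed at least as much. By the brightest probe set 9.26% of the 2570 genes in that range did. Every Cdk4 probe set lay above every Cdk6 probe set in its log2 difference, with a gap of at least 0.20. The means differed by 0.45. Of the 1212 genes with 3 probe sets over the floor on both arrays, 40.2% had all 3 of 1 sign. How many other gene pairs lie apart in this way was not counted. Both directions held after quantile normalization and after centring, but neither kinase differed by 2-fold.

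The Cdk4 and Cdk6 promoters are shown because the pair differed in direction and because Cdk4 is a known target of Myc, which binds the E-box CACGTG. They are the RefSeq promoters of build GRCm38.p6, each 250 bases before and 50 after the annotated start, written 5′ to 3′ on the gene's strand, with every CACGTG (the same on both strands) in capitals.
Cdk4 promoter, chr10:127063285-127063584, plus strand: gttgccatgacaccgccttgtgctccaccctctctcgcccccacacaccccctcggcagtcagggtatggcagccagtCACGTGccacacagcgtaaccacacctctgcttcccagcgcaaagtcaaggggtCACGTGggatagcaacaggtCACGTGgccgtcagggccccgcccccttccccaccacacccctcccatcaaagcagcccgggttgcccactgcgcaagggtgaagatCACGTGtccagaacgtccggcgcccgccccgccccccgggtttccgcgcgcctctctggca
Cdk6 promoter, chr5:3343643-3343942, plus strand: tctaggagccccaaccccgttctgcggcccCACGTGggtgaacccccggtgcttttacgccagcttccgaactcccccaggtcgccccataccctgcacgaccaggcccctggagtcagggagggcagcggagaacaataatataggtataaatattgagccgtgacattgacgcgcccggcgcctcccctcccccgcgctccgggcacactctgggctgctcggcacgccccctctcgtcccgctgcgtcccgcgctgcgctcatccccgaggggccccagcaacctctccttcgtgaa
The Cdk4 window held 4 matches and the Cdk6 window 1. Of 32851 RefSeq promoters of the same length, 7.15% held at least 1 CACGTG and 0.024% (8 promoters) held 4 or more. Myc read 7526 and 6079, a difference of -0.31, and its relative Mycn read 25285 and 14179, a difference of -0.83. The part of Myc and Mycn in the Cdk4 value was not tested. A match to these letters is a description and not a binding site.

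Among the Cip/Kip inhibitors, Cdkn1a gave opposite answers by its probe sets, Cdkn1b was level and Cdkn1c was close to the floor. Cdkn1a encodes p21, the inhibitor through which p53 arrests the cycle. The brighter of its probe sets (1424638_at) gave 1672 and 1384, a difference of -0.27. The dimmer one (1421679_a_at) gave 577 and 902, a difference of 0.64, or 1.56-fold higher. The first lay 1.23 and the second 2.90 within-gene SDs from 0, in opposite directions. Of the 6139 probe sets with a mean intensity from 500 to 2000, 1.69% differed at least as much as the second. The gap between the 2 was 0.92 on the log2 scale, against a median gap of 0.21 over the 2812 genes with 2 probe sets that exceeded the floor on both arrays. Of these, 2.17% had a gap as wide, and of the 354 genes with both probe sets from 500 to 2000 Cdkn1a was the only 1. The mean over both Cdkn1a probe sets was 0.19, so the sign of the gene depended on how its probe sets were combined.

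RefSeq lists 2 starts for Cdkn1a in its promoter table, and both windows are shown because the probe sets disagreed. The sources used here do not say which transcripts each probe set reads, so the probe sets cannot be assigned to a start. The windows are GRCm38.p6, 250 bases before to 50 after each start, 5′ to 3′ on the plus strand, with matches on either strand to the p53 decamer consensus in capitals.
Cdkn1a upstream start, chr17:29090729-29091028: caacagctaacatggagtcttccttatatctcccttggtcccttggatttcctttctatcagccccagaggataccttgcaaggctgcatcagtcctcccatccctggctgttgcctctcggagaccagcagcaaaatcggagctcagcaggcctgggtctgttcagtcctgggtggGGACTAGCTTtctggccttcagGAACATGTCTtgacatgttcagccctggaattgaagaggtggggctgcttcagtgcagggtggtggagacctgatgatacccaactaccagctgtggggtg
Cdkn1a downstream start, chr17:29093519-29093818: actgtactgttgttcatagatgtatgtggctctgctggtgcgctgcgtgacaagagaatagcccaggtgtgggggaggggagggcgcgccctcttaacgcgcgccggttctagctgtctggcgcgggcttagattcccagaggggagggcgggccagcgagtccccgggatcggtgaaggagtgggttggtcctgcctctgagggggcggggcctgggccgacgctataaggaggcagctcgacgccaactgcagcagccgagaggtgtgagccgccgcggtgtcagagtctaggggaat
The decamer searched was RRRCWWGYYY, in which R is A or G, W is A or T and Y is C or T. The upstream window held 2 matches to the p53 decamer and the downstream window 0, and 8.36% of the 32851 promoters held at least 1. Among the windows of the other members, that of Cdkn2d held 1 match. The capitals mark letters and not measured binding, and no match says only that these letters are not in this window. In this array pair the genes known as p53 targets went both ways, as given below.

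Cdkn1b encodes p27, whose protein is known to be controlled largely by degradation. It read 1605 and 1604 by its brighter probe set (1434045_at), a difference of 0.00. This was the smallest difference of any member, and its sign turned with the scaling (-0.01 after quantile normalization and 0.05 after centring). Its second probe set (1419497_at), at 61.5 and 55.6, was below the floor on both arrays and gives no difference. Cdkn1c encodes p57, the inhibitor of the family most closely tied to stem cell quiescence. Its only probe set (1417649_at) read 72.1 and 53.2. The second value was below the floor, so Cdkn1c was at least 1.17-fold lower, within the within-gene SD of probe sets this dim. Without a floor its difference was -0.44, and a floor at the 75th percentile lay above both values. Cdkn1c was therefore too dim on these arrays for a direction.

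Both Ink4 members were higher on the array labelled Satb1, each by a single probe set. Cdkn2d, which encodes p19 of the Ink4 family, read 1461 and 1878 (1416253_at), a difference of 0.36 and the highest of any member. It was 1.63 times the within-gene SD, and 9.04% of the 4039 genes with a mean intensity from 500 to 2000 differed at least as much. Cdkn2c, which encodes p18, an inhibitor known to limit stem cell self-renewal in mice, read 759 and 846 (1416868_at), a difference of 0.16. That was within the within-gene SD, and 40.6% of the genes in the range differed at least as much. With 1 probe set each, neither value has a second reading. The other Ink4 genes, Cdkn2a (26.4 and 2.8) and Cdkn2b (7.6 and 11.8), were below the floor on both arrays, so the Ink4 signal seen here came from Cdkn2c and Cdkn2d.

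**Figure D3:**
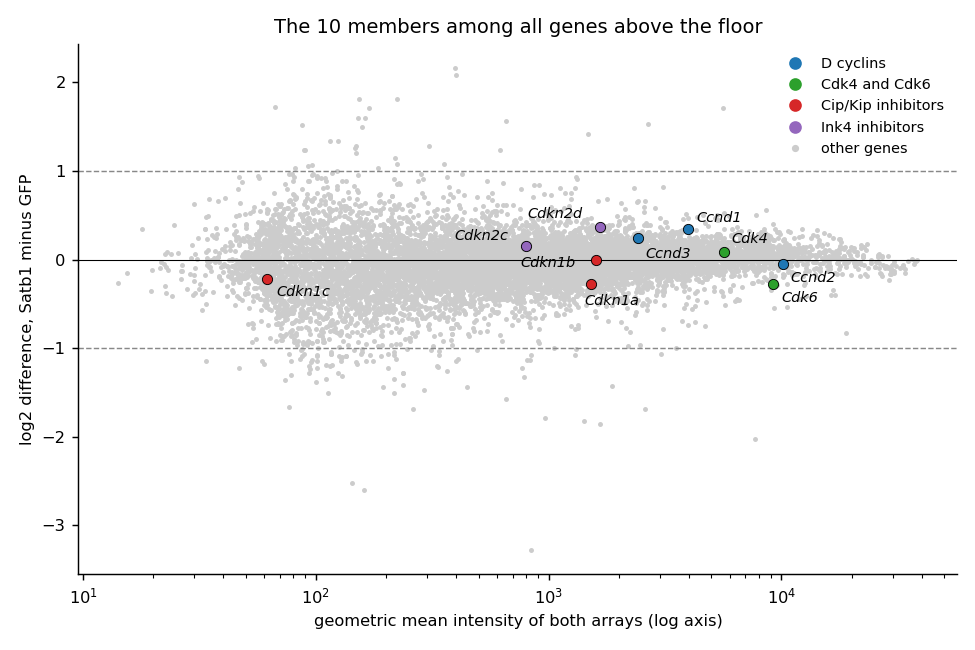
Log2 difference (Satb1 minus GFP) against the geometric mean intensity of both arrays (log axis) for the 11048 genes above the floor (grey), each by its brightest probe set, with the 10 members coloured by group and dashed lines at 2-fold. All members lie between -0.27 and 0.36, inside the dashed lines.

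The promoter table held 10 windows for 7 members (Ccnd3, Cdk4, Cdk6, Cdkn1a, Cdkn1b, Cdkn2c and Cdkn2d). Their base composition was read as a description, and a link to the differences was not tested. The share of A and T ran from 26.7% at a Cdkn2c start to 56.0% at the other Cdkn2c start, and 9 of the 10 windows were below the median of 47.3% over all 32851 promoters. The Cdk6 window had 33.3% and the Cdk4 window 33.0%. None of the 10 windows held one of the E2F words TTTCCCGC, TTTCGCGC, TTTGCCGC or TTTGGCGC on either strand, which 2.26% of all promoters held. Binding of Satb1 was not measured here.

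Downstream of the kinases, the pocket proteins, E2F and DP factors went both ways. The list had 13 genes above the floor, 7 of them higher to some degree and 6 lower, 0 by 2-fold, with a median of 0.03. Rb1, the gene of the retinoblastoma protein that Cdk4 and Cdk6 phosphorylate, read 1525 and 1917, a difference of 0.33. E2f4, a repressive E2F, had the largest difference, -0.56, at the low intensities of 115 and 78.2. E2f7, an atypical repressor, read 892 and 1050. The brightest of the list, the DP subunit gene Tfdp1 (7897 and 8088) and the atypical repressor gene E2f8 (3140 and 3470), were nearly level.

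Genes that act after the kinases were mostly higher by small amounts. Of 18 measured E2F target genes of S phase entry, 14 were higher to some degree and 4 lower, with a median of 0.13 and 0 at 2-fold, whereas 45.2% of all genes with signal over the floor were higher. The thymidine kinase gene Tk1 read 2988 and 3664, a difference of 0.29. Gins2, of the replicative helicase, read 1175 and 1428, a difference of 0.28. The brightest, Pcna (18591 and 18656) and Mcm7 (16806 and 17625), were level to within 0.07. The largest difference went the other way, in the thymidylate synthase gene Tyms (412 and 279, a difference of -0.56), while another Tyms probe set read 104 and 137. After quantile normalization 12 of the 18 were higher, beside 50.3% of all genes over the floor, and after centring 16, beside 54.8%.

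In the list of other cyclins, Cdks and Cdc25 phosphatases, 7 of 9 genes with signal over the floor were higher to some degree and 2 lower, with a median of 0.11 and 0 at 2-fold. Cdc25a, the phosphatase that activates Cdk2, had the largest difference, 0.43, at 1732 and 2338, and a second probe set gave 0.12. The cyclin E gene Ccne1 read 582 and 694, and Cdc25b read 694 and 806. The bright genes Cdk1 (6429 and 6871) and Ccna2 (6385 and 6876) differed by about 0.10. The mitosis and proliferation markers gave a similar picture: 8 of 10 were higher to some degree, with a median of 0.14. Both lists stand beside 45.2% higher over all genes above the floor. Among the brighter genes above a floor at the 75th percentile, 49.1% were higher. Kif20a read 1616 and 1948, Aurka 1862 and 2221, and Bub1 3315 and 3811. The brightest markers were Top2a (10888 and 11606, with a second probe set lower at 844 and 772) and Mki67 (10748 and 10514). Summed over this list, intensity was 48141 and 51298. The part that the share of cycling cells plays in the member differences was not tested, and more cells of a kind and more RNA per cell cannot be told apart in these bulk samples.

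Among genes that control the stability or assembly of the complexes, 0 were counted as 2-fold apart, although Rbx1 has only a lower bound. In the turnover list, 9 of 15 genes were higher to some degree and 6 lower, with a median of 0.07. Cks1b, the cofactor that presents p27 to the Skp2 ubiquitin ligase, read 16855 and 19312, and the ligase subunit gene Skp1 read 10966 and 11763. Fbxo4, whose product is a proposed receptor for cyclin D1 breakdown, read 300 and 221, a difference of -0.44. Rnf123, of a ligase that acts on p27, read 306 and 249. Rbx1, read by a probe set at 13.8 and 86.6 whose first value is under the floor, has a lower bound of 0.49. Of the 5 genes of the Cdk-activating kinase and Cdk4 chaperones, 3 were higher and 2 lower, with Cdk7 at 1876 and 2092 and the bright chaperone gene Hsp90aa1 at 19530 and 21402 by its brightest probe set. Another Hsp90aa1 probe set read 6369 and 12017, a difference of 0.92, and the third over the floor gave 0.14. The chaperone cofactor gene Cdc37 (5459 and 5629) and the cyclin H gene Ccnh (5799 and 5730) were nearly level.

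**Figure D4:**
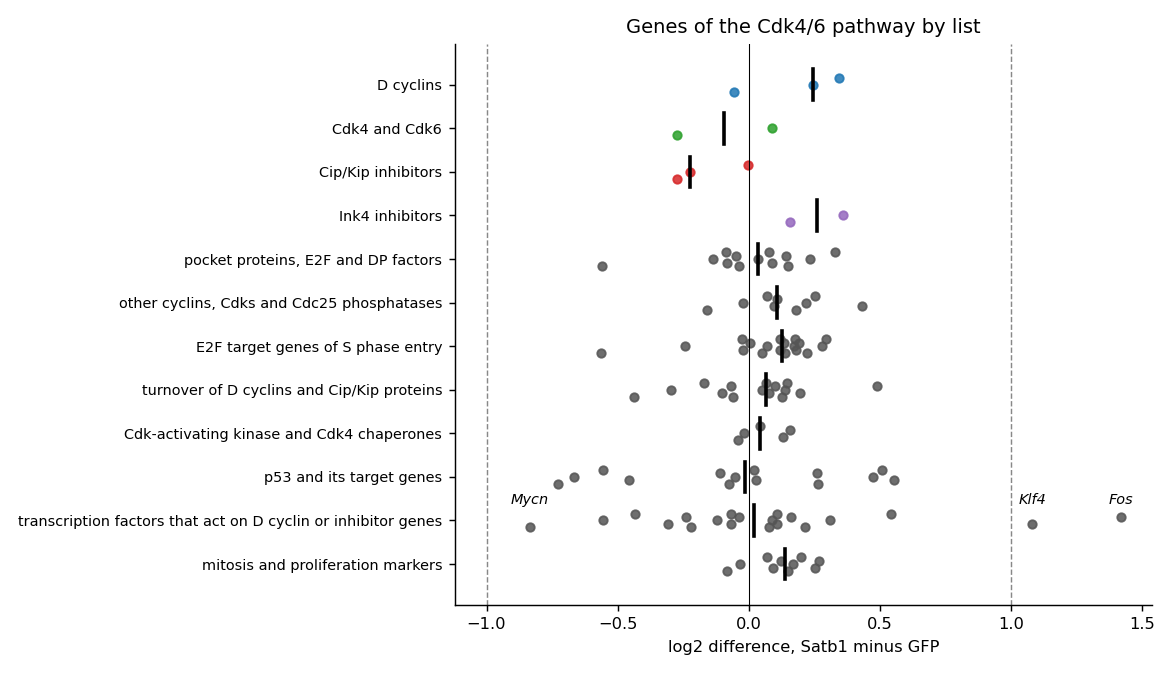
Log2 difference (Satb1 minus GFP) of the genes above the floor in each list of the pathway, 1 point per gene by its brightest probe set, with a black bar at the list median and dashed lines at 2-fold. Fos and Klf4 are the points beyond 2-fold, and Mycn is the lowest point. The list medians lie between -0.22 for the Cip/Kip inhibitors and 0.26 for the Ink4 inhibitors. The first is the value of Cdkn1c, which is too dim for a direction, and the second rests on 2 genes with 1 probe set each.

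For Cdkn1a and its regulator p53, 14 genes of the list of p53 and its target genes were measured. Trp53, the gene of p53 itself, was not among them. Of the 14, 7 were higher to some degree and 7 lower, with a median of -0.02 and 0 at 2-fold. The largest differences were those of Zmat3 (393 and 237, -0.73), Phlda3 (312 and 197, -0.67) and Eda2r, which read 90.8 and 58.0 and was at least 1.47-fold lower. Nearly as large in the other direction were Sesn2 (0.55), Pmaip1 (0.51) and Gadd45a (0.48), though the other Sesn2 probe set gave -1.09. The 7 and 7 were counted by each gene's brightest probe set. Ccng1 was lower by its brightest (3961 and 3674) and by its others. Sesn1 was higher by its brightest (2721 and 3267) and lower by the other 3, the next of which read 2568 and 2120, a difference of -0.28.

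Of 20 transcription factor genes above the floor that act on D cyclin or inhibitor genes, 2 were 2-fold higher, 0 lower and 18 within 2-fold, with a median of 0.02. Fos, an AP-1 subunit that acts on the Ccnd1 promoter, read 899 and 2406, a 2.68-fold difference by its only probe set. Klf4, a factor that activates Cdkn1a, read 153 and 324, a 2.12-fold difference, and its second probe set read 88.9 and 178. The beta-catenin gene Ctnnb1, whose product acts on Ccnd1 in other tissues, read 9734 and 12080, a difference of 0.31. Mycn was the lowest of the list, at 1.78-fold lower by its brightest probe set and by 0.26 and 0.09 on the log2 scale in its others, at 3973 and 3327 and at 202 and 190. Over the 9 lists beyond the members together, 104 genes were above the floor, of which 65 (62.5%) were higher to some degree and 39 lower. Beside them, 45.2% of all genes were higher, or 49.1% with the floor at the 75th percentile. After quantile normalization 63.5% of them were higher, beside 50.3%, and after centring 71.2%, beside 54.8%. Fos and Klf4 were the ones 2-fold higher (1.92%, against 0.272% of all genes), and 0 were 2-fold lower (against 0.86%). The lists were chosen with earlier results of these data known. A count of 2 is also too small to set apart from the share of all genes.

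**Figure D5:**
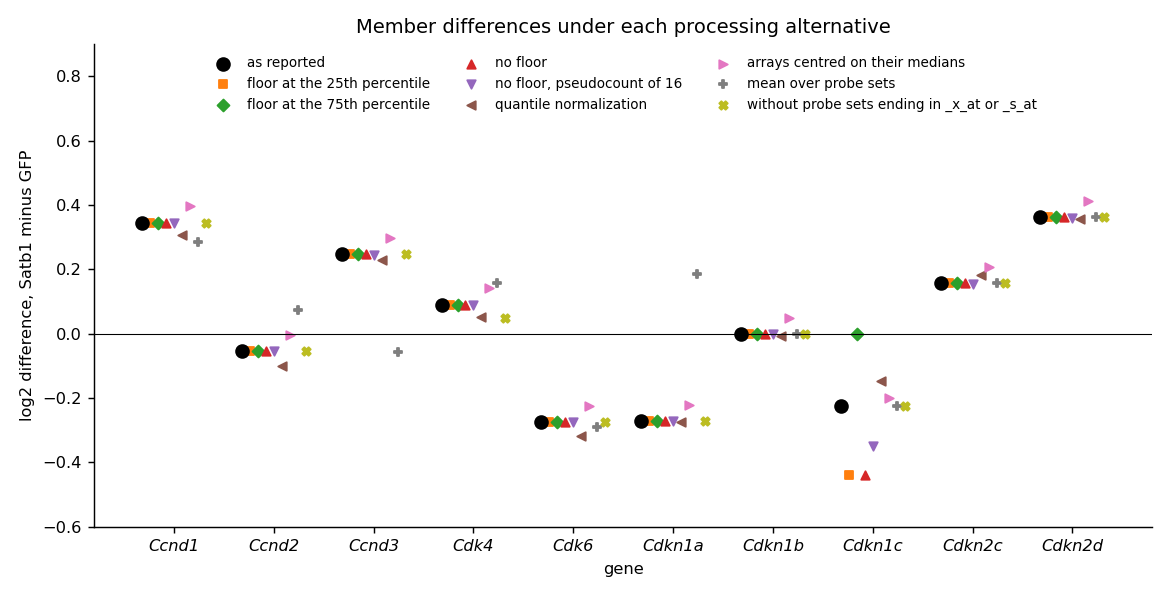
Log2 difference (Satb1 minus GFP) of each member as reported (black) and under 8 processing alternatives (coloured markers). Ccnd1, Cdk4, Cdkn2c and Cdkn2d stay above 0 and Cdk6 stays below 0 in each, whereas Ccnd2, Ccnd3, Cdkn1a and Cdkn1b lie on both sides of 0 and Cdkn1c reaches 0 with the highest floor.

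The direction of each member was then read across all 9 settings. Ccnd1 stayed between 0.28 and 0.40, Cdkn2d between 0.36 and 0.41, Cdkn2c between 0.15 and 0.21 and Cdk4 between 0.05 and 0.16. The probe set rules could not change Cdkn2c and Cdkn2d, which have 1 probe set each. Changing or removing the floor, without a pseudocount, altered only Cdkn1c. Cdk6 stayed between -0.32 and -0.22. Of the 25 member probe sets with signal over the floor, 22 had the same sign as deposited, after quantile normalization and after centring. The exceptions were the second Ccnd2, the third Ccnd3 and the brighter Cdkn1b probe sets.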

How the data were processed

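Total RNA of each sample (250 ng) was labelled with biotin as cRNA and hybridised to 1 Affymetrix array, per the labels' protocols. The deposited values are MAS5 intensities made by the authors, per the submitters' processing notes; the sources used here give no version, scaling target or detection calls. After trimming 2% at each end, the mean was 497.5 on both arrays, so no further normalization was applied. Of 45037 probe sets, 34945 had 1 gene symbol, and 34741 of these were updated by Entrez ID to the gene table of GRCm38.p6; 932 with several symbols and 9160 without one were not used for genes. Each gene was represented by its brightest probe set on the log2 scale. Differences, counts and SDs were computed in Python 3.11.15 with pandas 2.3.3 and tested on simulated data. The simulated shifts were larger than any member difference reported here. No test across samples was possible. Named genes were all members and, per other pathway list, the genes 2-fold apart, or else up to 3 with the largest difference, and the 2 brightest. The members and lists were chosen with earlier results of these data known. Listed genes without a probe set of 1 symbol were not analysed here. Alternatives changed the floor, scaling, probe set rule and threshold. Arrays give no read depth; precision is limited by their number.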

Additional observations from a re-analysis of the deposited data

How the results depend on the processing

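No paired analysis was possible because there was 1 array per group, which also left no replicate to leave out. The count of members 2-fold apart was 0 under every alternative floor, scaling and probe set rule and at 1.5-fold and 3-fold, and 4 at 1.2-fold (an alternative chosen after seeing the data). The count of member probe sets was 0 under the same floors and scalings and at 3-fold, 1 at 1.5-fold and 9 at 1.2-fold. Of 80 single-member differences under 8 alternatives, 78 moved by less than the within-gene SD. The exceptions were those of Ccnd3 (-0.06) and Cdkn1a (0.19) with the mean over probe sets. Many of the 80 could not move. Changing or removing the floor, without a pseudocount, altered only Cdkn1c, and leaving out probe sets ending in _x_at or _s_at altered only Cdk4. The mean over probe sets also turned the sign of Ccnd2 (0.07). In the other pathway lists the count of 2 became 4 with the floor at the 25th percentile, 1 with it at the 75th, 5 with no floor, 4 with no floor and a pseudocount of 16, 5 at 1.5-fold and 0 at 3-fold. Over all genes the count of 125 became 1227 with the floor at the 25th percentile, 23 with it at the 75th, 3457 with no floor, 981 with no floor and a pseudocount of 16, 75 with the mean over probe sets, 625 at 1.5-fold, 19 at 3-fold and 2937 at 1.2-fold. Of the genes 2-fold apart, 76.0% were lower on the array labelled Satb1 as deposited and 52.6% after quantile normalization. A lower floor or threshold lets dim or smaller differences count by construction.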
